A study of Mus musculus with 9 samples.

Results

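Quadriceps of mdx mice that lack the mineralocorticoid receptor (MR) in myeloid cells (LysM-MRcko/mdx) were compared directly with quadriceps of mdx mice that lack it in myofibers (MCK-MRcko/mdx). The comparison used the 3 LysM-MRcko/mdx arrays and the 3 MCK-MRcko/mdx arrays, 6 of the 9 arrays in the series, over all 65672 transcript clusters. In the main fit the 3 Cre-/mdx arrays did not enter the size of these differences. They were used to state which knockout had moved. The model was fitted on all 9 arrays, so they also helped to set the spread behind the standard errors and p-values, and thus the calls. Every mouse was 8 weeks old, carried the mdx mutation and floxed MR alleles (MR flox/flox), and gave 1 Clariom D array. The LysM-MRcko/mdx mice (2 males and 1 female, LysM-Cre +/-) express Cre from the lysozyme M gene of macrophages, monocytes and neutrophils. The MCK-MRcko/mdx mice (1 male and 2 females, MCK-Cre +/-) have Cre under the muscle creatine kinase (MCK) promoter, which works in skeletal and cardiac muscle fibers. The Cre-/mdx mice (2 males and 1 female) carry no Cre and keep MR in all cells.

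MR is a nuclear receptor that binds aldosterone and glucocorticoids and acts as a transcription factor. In dystrophic muscle, fibers tear and are replaced by new fibers that pass through an embryonic program, macrophages clear the debris, and fibroblasts turn into contractile myofibroblasts that lay down matrix. A whole muscle holds all of these cells, so each value is an average over them, and fewer cells of a type cannot be told apart from less RNA per cell.

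Single arrays are called LysM, MCK and Cre- arrays 1 to 3 after their replicate numbers, of which LysM array 3, MCK arrays 1 and 3 and Cre- array 2 were from females. Values are log2 signals, so a difference of 1 is a doubling. Differences are LysM-MRcko/mdx minus MCK-MRcko/mdx throughout unless another pair is named. Array medians lay between 4.70 and 4.78, and each array correlated with the others at r from 0.982 to 0.994, with MCK array 3 and Cre- array 1 as the least alike pair. The scale ended at 19.93. Fast fiber genes such as Myh4, Mylpf and Tnnc2 lay at this end and differed by 0.00, and 191 clusters were within 0.5 of it in every array, where no difference can be seen. Nr3c2, which encodes MR, had signals of 6.89, 6.89 and 6.96 in LysM-MRcko/mdx, 6.74, 6.81 and 6.87 in MCK-MRcko/mdx, and 6.89, 7.12 and 7.06 in Cre-/mdx. The knockouts differed by 0.11 ± 0.07 (SE), with no overlap between their arrays, and this was not called. A signal for the whole gene in whole muscle can include exons outside the deleted part and cells without Cre, so it checks little about either deletion.

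A cluster or gene was called where the knockouts differed by at least 1 with an unadjusted p under 0.05 in limma. Of 65672 clusters, 282 were called (0.429%), 134 higher (0.204%) and 148 lower (0.225%) in LysM-MRcko/mdx. Among 30061 genes, each given by 1 cluster, 154 were called (0.512%). Of these, 100 were higher (0.333%) and 54 were lower (0.18%), while the median difference of all genes was 0.00. No cluster passed an adjusted p of 0.05 in limma, where 4679 had an unadjusted p under 0.05 (7.12%), or in the plain equal-variance test, where 2670 had one (4.07%). The calls below are therefore a ranked set of candidates. An exact permutation test of 3 arrays against 3 cannot go below 0.10. With the arrays quantile-normalized again, the split between the directions moved to 212 clusters higher and 91 lower, and to 164 genes higher and 34 lower.

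The higher genes led with Bst2, Tnc, Pnpla2, Cyp2e1 and Mymk, and the lower genes with Ankrd1 and Abra. The knockout that differed from Cre-/mdx was not the same for all of them. Of the 100 higher genes, 35 were called higher in LysM-MRcko/mdx than in Cre-/mdx, 11 were called lower in MCK-MRcko/mdx than in Cre-/mdx, and 54 met the rule on neither side. Their median was 0.85 in LysM-MRcko/mdx minus Cre-/mdx and -0.48 in MCK-MRcko/mdx minus Cre-/mdx. Of the 54 lower genes, 14 were called lower in LysM-MRcko/mdx than in Cre-/mdx, 2 were called higher in MCK-MRcko/mdx than in Cre-/mdx, and 38 met the rule on neither side. Both sides share the Cre-/mdx arrays.

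**Figure D1:**
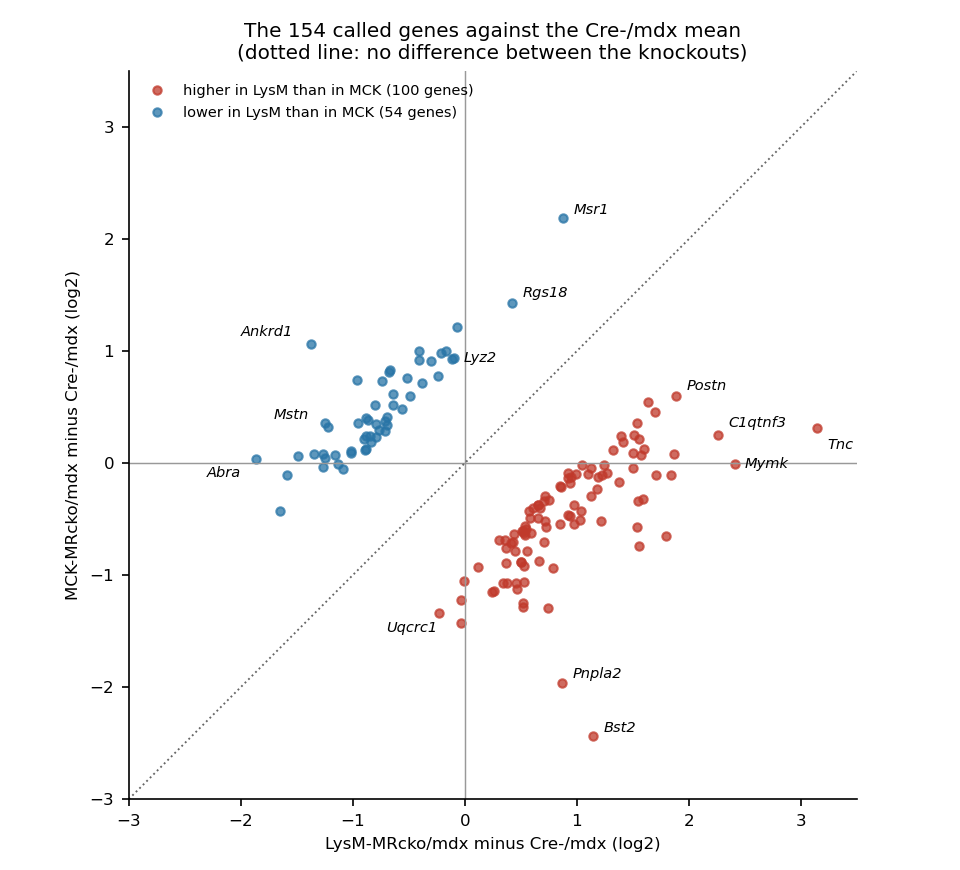
Each point is 1 of the 154 called genes, with LysM-MRcko/mdx minus Cre-/mdx on the x axis and MCK-MRcko/mdx minus Cre-/mdx on the y axis (log2), red for the 100 genes higher in LysM-MRcko/mdx than in MCK-MRcko/mdx and blue for the 54 lower ones. Tnc lies far to the right at 3.15 and 0.31, Bst2 far below at 1.15 and -2.44, and Msr1 above at 0.88 and 2.19.

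The arrays of the knockouts did not overlap for 85 of the 100 higher genes and 48 of the 54 lower genes, against 4.16% and 5.71% of all genes in those directions. The genes were called on these same arrays, so their lack of overlap was largely fixed by that choice and is no further evidence. The sexes were not balanced. Within females (1 LysM-MRcko/mdx array against 2 MCK-MRcko/mdx arrays) and within males (2 against 1) all 154 genes kept their sign, but the sign was in part fixed by the choice of these genes on the same arrays. For 80 of the 100 higher genes the difference was larger in females, with a median of 1.52 in females and 0.86 in males. The same held for 39 of the 54 lower genes, with a median of -1.34 in females and -0.9 in males. The male MCK-MRcko/mdx mouse, MCK array 2, had the highest MCK-MRcko/mdx signal for 74 of the 100 higher genes. It had the lowest for 33 of the 54 lower genes. The knockout difference in females was compared with that in males (sex by genotype) in limma. This had an adjusted p under 0.05 for 0 clusters and an unadjusted p under 0.05 for 4205. Males and females as such were not compared.

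Several matrix genes of activated fibroblasts were higher in LysM-MRcko/mdx. Of the 17 measured genes that the study tabled as a myofibroblast signature, 16 were higher, with a median difference of 1.38. The study chose that list on these samples, so its count is no independent evidence of the direction. The list of 19 activated fibroblast markers, which shares Tnc, Cilp, Fn1 and Postn with it, had 5 higher, 0 lower and a median of 0.71 (0.47 without LysM array 1). The 5 were these shared genes and Acta2, so its called members are hardly separate from the tabled genes. Of the 19, 17 were above 0 and 2 below. Against Cre-/mdx, the tabled genes had a median of 1.40 in LysM-MRcko/mdx and -0.02 in MCK-MRcko/mdx. The number of tabled genes called was 7 without MCK array 1 and to 10 without LysM array 1 or MCK array 3. Dap, the 1 tabled gene that was not called, differed by 0.95.

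Tnc encodes tenascin C, a matrix glycoprotein of wounds and regenerating muscle. Its signals were 13.80, 12.54 and 12.28 in LysM-MRcko/mdx, 9.76, 9.79 and 10.55 in MCK-MRcko/mdx, and 9.99, 8.84 and 10.35 in Cre-/mdx. All LysM-MRcko/mdx arrays were above the other 6. The difference was 2.84 ± 0.53 (SE), or 7.16-fold (adjusted p = 0.439 in limma).

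C1qtnf3 makes a secreted relative of the hormone adiponectin. Its signals were 11.54, 11.08 and 11.38 in LysM-MRcko/mdx, 8.82, 9.41 and 9.72 in MCK-MRcko/mdx, and 9.22, 8.94 and 9.05 in Cre-/mdx. The arrays within each group lay close together and the LysM-MRcko/mdx arrays stood apart from both other groups. The difference was 2.02 ± 0.23, or 4.05-fold (adjusted p = 0.333 in limma).

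Cilp, which encodes a matrix protein named for the cartilage intermediate layer, had 13.48, 13.51 and 13.89 in LysM-MRcko/mdx, 11.66, 11.69 and 11.87 in MCK-MRcko/mdx, and 12.18, 11.50 and 12.55 in Cre-/mdx. The spread within each knockout was far smaller than the difference of 1.89 ± 0.26 (adjusted p = 0.349 in limma). Acta2, smooth muscle actin and the defining contractile gene of myofibroblasts, had 15.48, 14.81 and 14.66 in LysM-MRcko/mdx, 12.97, 13.38 and 13.39 in MCK-MRcko/mdx, and 13.97, 13.13 and 14.20 in Cre-/mdx. It is also made by vessel walls, and it differed by 1.74 ± 0.33, with the Cre-/mdx arrays reaching between the knockouts. Olfml2b, an olfactomedin-like matrix protein, was 1.92 higher and did not overlap. These 5 genes kept their calls when any array was left out and under every other setting tried.

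**Figure D2:**
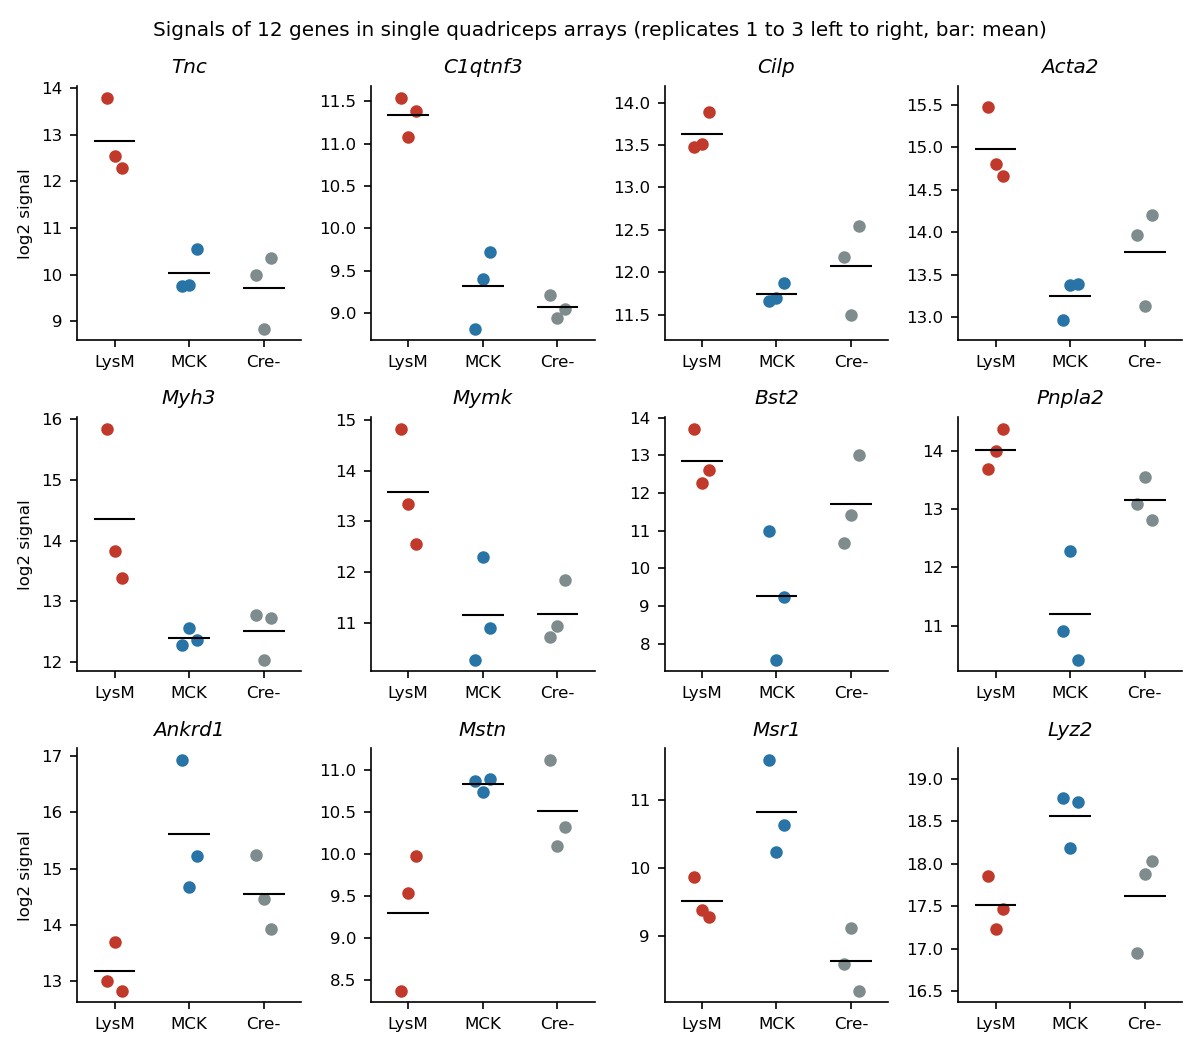
Signals of 12 genes on the y axis (log2; each panel has its own range) in the single arrays of each knockout and of Cre-/mdx, with a bar at each group mean. Tnc, C1qtnf3, Cilp and Myh3 are high in LysM-MRcko/mdx alone, Pnpla2 and Bst2 are low in MCK-MRcko/mdx, and the 4 genes of the bottom row are lower in LysM-MRcko/mdx than in MCK-MRcko/mdx.

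Other genes of the matrix were higher by less. Postn, which encodes periostin, had 17.51, 17.87 and 17.45 in LysM-MRcko/mdx, 16.21, 16.24 and 16.51 in MCK-MRcko/mdx, and 15.76, 14.94 and 16.47 in Cre-/mdx. It was 1.29 higher. It was above Cre-/mdx by 1.89 in LysM-MRcko/mdx and by 0.60 in MCK-MRcko/mdx. Fn1, fibronectin, was 1.48 higher without overlap, but was not called when LysM array 3 (1.20), MCK array 1 (1.48) or MCK array 3 (1.36) was left out. Mmp14, a membrane-bound matrix metalloproteinase, was 1.42 higher, and was not called without LysM array 1 (1.36), LysM array 3 (1.25) or MCK array 1 (1.07). Loxl1, a cross-linking enzyme of elastic fibers, had 11.30, 10.91 and 11.29 in LysM-MRcko/mdx, 9.59, 10.27 and 10.16 in MCK-MRcko/mdx, and 9.67, 9.34 and 10.30 in Cre-/mdx, a difference of 1.16 that dropped to 0.95 without MCK array 1. Of the other tabled genes, Mfap4 (1.30), Pfn1 (1.10), Sulf2 (1.07) and Ddah1 (1.04) were higher, but each lost its call without at least 1 of LysM array 1 and LysM array 3 and without MCK array 1. Prelp, a leucine-rich proteoglycan of matrix, was 1.76 higher (not called without LysM array 2 or 3), mainly through low values in MCK-MRcko/mdx (-1.25 against Cre-/mdx). Lox, the founding member of that enzyme family, differed by -0.05 ± 0.23.

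None of the collagen genes listed was called. Of 23 fibrillar collagen and matrix genes, 1 was higher (Fn1), 0 were lower and the median was 0.31. Of 16 markers of fibro-adipogenic progenitors and resting fibroblasts, none was called, with a median of -0.11 and 7 above and 9 below 0. Of 17 genes for transforming growth factor beta ligands and receptors, none was called and the median was 0.05. The 16 basement membrane genes had a median of 0.27 (0.17 without MCK array 1). Hspg2, which encodes perlecan, was the 1 called among them, and its 1.58 came more from the MCK-MRcko/mdx side (-1.12 against Cre-/mdx) than from the LysM-MRcko/mdx side (0.47). The plot of the gene lists shows these medians side by side.

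**Figure D3:**
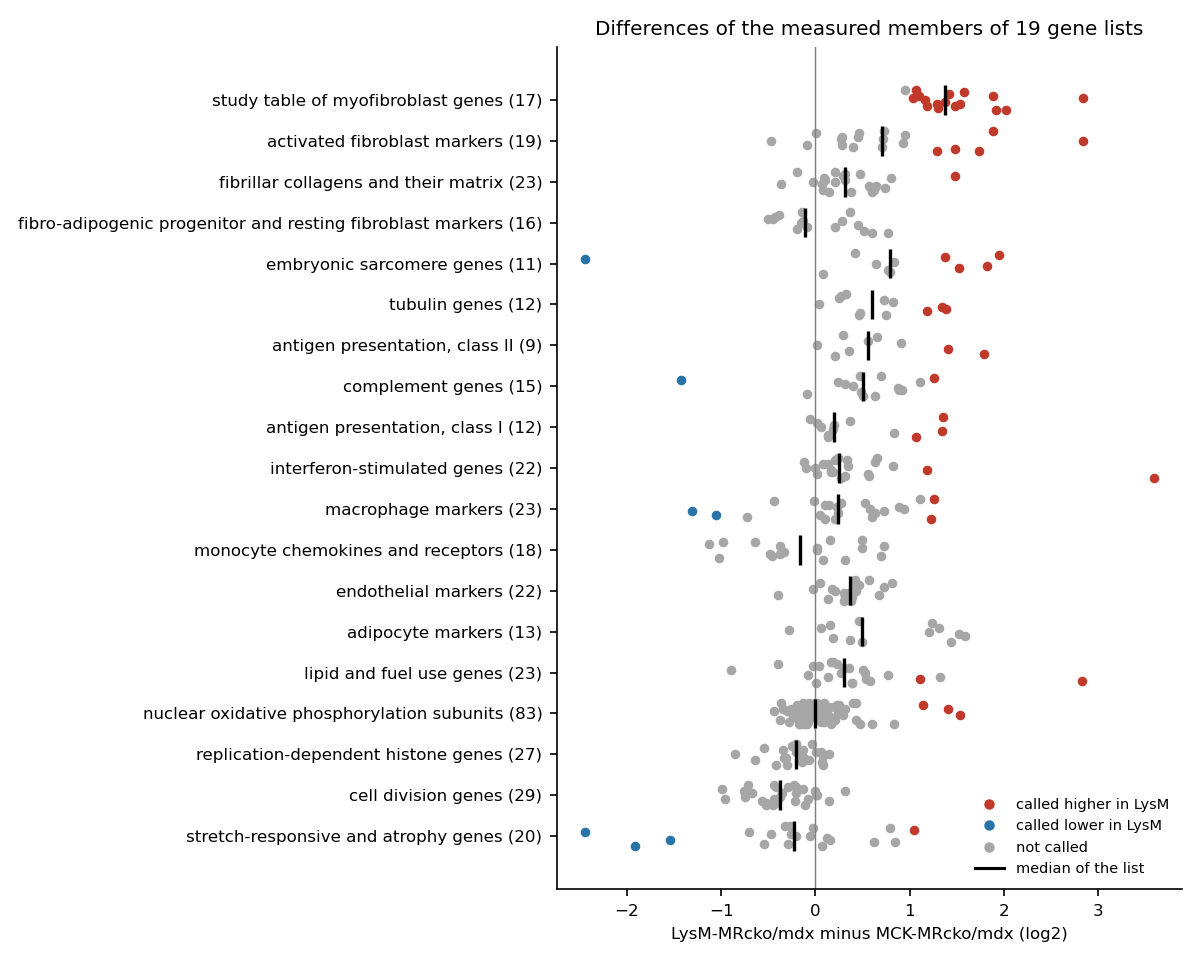
LysM-MRcko/mdx minus MCK-MRcko/mdx on the x axis (log2) for every measured member of 19 gene lists, with the number of members in parentheses, red for members called higher in LysM-MRcko/mdx, blue for members called lower, grey for the rest and a black bar at the median. The tabled myofibroblast genes lie furthest to the right with a median of 1.38, and the cell division genes furthest to the left with -0.37.

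Because MR is a transcription factor that binds the half-site TGTTCT, the promoters of the called genes were searched for these 6 letters on both strands. RefSeq promoters of 300 bases around the gene start were given for 68 of the 100 higher genes and 22 of the 54 lower genes. The half-site was in 9 of the 68 (13.2%) and in 6 of the 22 (27.3%), against 19.2% of the 18019 measured genes with a promoter. Of the 6 lower genes, 4 (Gm14305, Gm14322, Zfp971 and Zfp931) are copies of each other on chromosome 2, whose promoters were 15 to 68 base changes apart, against 157 to 166 from the other lower promoters, and they hold the half-site in the same surroundings, so they are not separate cases. The full inverted repeat of the half-site, with 3 bases between its arms, was in 0 of the called genes and in 2 of all. Acta2 was among the few called genes with a pair of half-sites and Tnnt2 among the highest genes with 1, so both promoters are shown 5′ to 3′ with the half-sites in capitals. They are RefSeq sequences of GRCm38.p6, Acta2 from the minus strand of chr19:34255324-34255623 and Tnnt2 from the plus strand of chr1:135836084-135836383.
Acta2: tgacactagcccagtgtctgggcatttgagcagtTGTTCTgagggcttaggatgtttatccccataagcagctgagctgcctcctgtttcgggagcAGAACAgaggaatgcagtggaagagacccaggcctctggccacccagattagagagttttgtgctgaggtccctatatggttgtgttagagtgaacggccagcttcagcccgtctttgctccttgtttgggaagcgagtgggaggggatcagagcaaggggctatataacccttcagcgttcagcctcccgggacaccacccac
Tnnt2: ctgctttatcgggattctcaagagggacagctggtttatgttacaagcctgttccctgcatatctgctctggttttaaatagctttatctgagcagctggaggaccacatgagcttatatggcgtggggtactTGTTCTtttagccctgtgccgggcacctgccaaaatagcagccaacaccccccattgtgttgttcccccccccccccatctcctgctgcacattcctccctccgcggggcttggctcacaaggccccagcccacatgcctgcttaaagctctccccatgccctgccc
A match of 6 letters is a description of the sequence and not a binding site.

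Several genes of newly forming fibers were higher in LysM-MRcko/mdx, most of all in LysM array 1. Myh3, the embryonic myosin heavy chain, had 15.84, 13.83 and 13.39 in LysM-MRcko/mdx, 12.29, 12.56 and 12.37 in MCK-MRcko/mdx, and 12.78, 12.04 and 12.73 in Cre-/mdx. All LysM-MRcko/mdx arrays were above the other 6, and LysM array 1 was far above the others. The difference was 1.95 ± 0.60 (adjusted p = 0.620 in limma) and 1.20 without that array.

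Mymk encodes myomaker, the membrane protein that lets myoblasts fuse. Its signals were 14.83, 13.35 and 12.55 in LysM-MRcko/mdx, 10.27, 12.30 and 10.90 in MCK-MRcko/mdx, and 10.73, 10.94 and 11.84 in Cre-/mdx. The groups did not overlap, but MCK array 2 came close to the lowest LysM-MRcko/mdx array. The difference was 2.42 ± 0.73. Tnnt2, the troponin T of embryonic and cardiac muscle, was 1.82 higher, and Tnni1, the slow troponin I, was 1.50 higher, both without overlap. Tnni1 was listed with 12 slow fiber genes, of which 2 were higher (Tnni1 and Casq2) and 0 lower. Of these 12, 6 were above and 5 below 0, with a median of 0.03. The calls of Myh3, Mymk and Tnnt2 were lost in the plain equal-variance test and with Tukey biweight averages, and that of Tnni1 was kept throughout.

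Chrna1, the acetylcholine receptor subunit of denervated and young fibers, was 1.53 higher and Ncam1, an adhesion protein of regenerating fibers, was 1.38 higher, and Ncam1 overlapped by array. Without LysM array 1 the value was 0.88 for Chrna1 and 1.08 for Ncam1, without MCK array 1 it was 1.25 and 1.45, and without MCK array 3 it was 1.59 and 0.98, and neither was then called. Ncam1 was also not called without LysM array 2 (1.31), nor Chrna1 without Cre- array 1 or 3. Of the 11 embryonic sarcomere and regeneration genes measured, these 4 of the list (Myh3, Tnnt2, Chrna1 and Ncam1) were higher, 1 was lower (Ankrd1) and the median was 0.79. The count of higher genes was 2 without LysM array 1, MCK array 1 or MCK array 3. The list's median against Cre-/mdx was 1.18, 0.58 and 0.31 in the LysM-MRcko/mdx arrays and -0.32, 0.22 and -0.15 in the MCK-MRcko/mdx arrays. Myogenin, the factor of differentiating myoblasts, overlapped, with 12.60, 11.71 and 11.29 in LysM-MRcko/mdx and 9.64, 12.45 and 10.66 in MCK-MRcko/mdx (Myog, difference 0.95). The satellite cell gene Pax7 and the myoblast factor Myod1 differed by 0.10 and 0.15.

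Tubulin genes lay on the same side, 12 of 12 above 0 with a median of 0.60 (11 of 12 and 0.37 without LysM array 1). Tuba4a, an alpha tubulin of mature muscle, had 16.34, 16.14 and 16.36 in LysM-MRcko/mdx, 14.80, 15.46 and 14.42 in MCK-MRcko/mdx, and 16.01, 16.01 and 16.11 in Cre-/mdx. Here MCK-MRcko/mdx was the group that stood apart, by -1.15 from Cre-/mdx, and the knockouts differed by 1.39 ± 0.24 (adjusted p = 0.421 in limma). Tubb6 and Tubb2b, beta tubulins of young fibers, were 1.34 and 1.18 higher, with 0.77 and 0.65 without LysM array 1, when neither was called. Of the 12, the count of called genes was 3 (Tuba4a, Tubb6 and Tubb2b), 1 without LysM array 1, LysM array 3, MCK array 1 or MCK array 3, 2 without Cre- array 1, Cre- array 2 or MCK array 2, and 5 without LysM array 2. Tubulin genes are alike in sequence, so their signals may be partly shared. Genes of dividing cells lay on the other side without being called. Of 29 cell division genes, 4 were above and 24 below 0, with a median of -0.37, and Mki67 had 11.68, 9.80 and 10.26 in LysM-MRcko/mdx and 11.16, 11.67 and 11.89 in MCK-MRcko/mdx. LysM array 1 was again the high one, and without it the median was -0.56 and 4 of the 29 were lower. The median was -0.22 without LysM array 2 or MCK array 3.

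**Figure D4:**
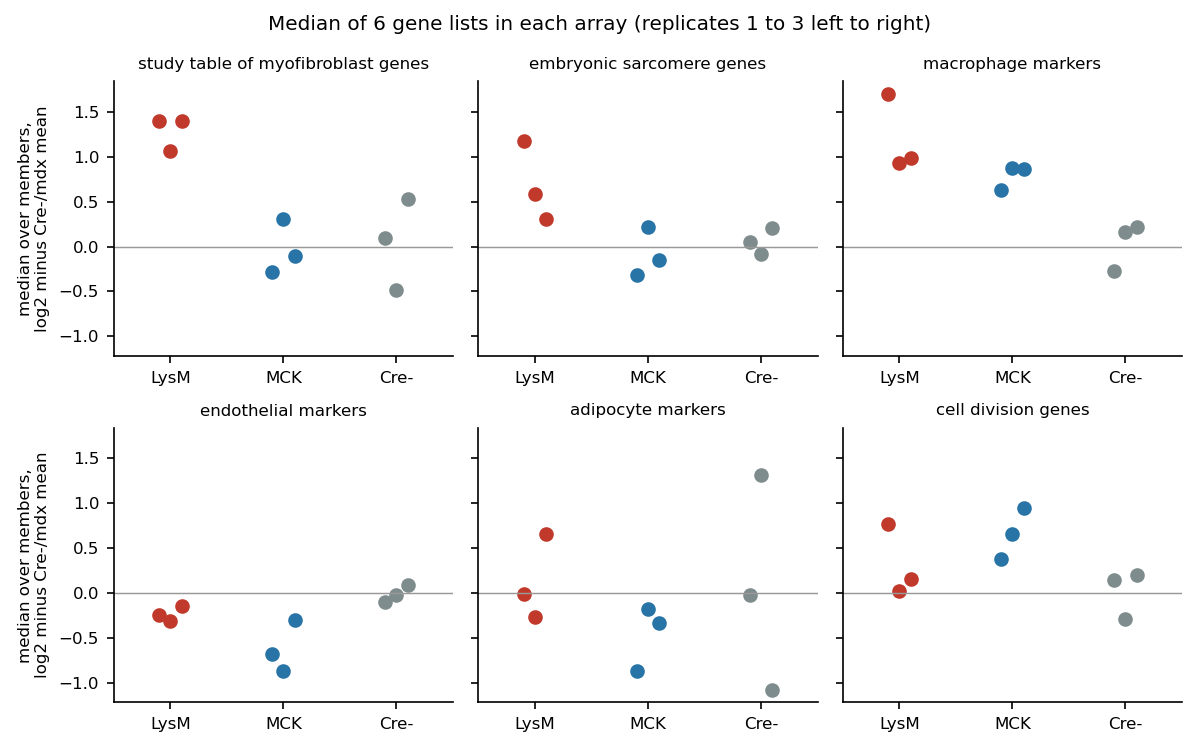
Median over the members of 6 gene lists in each array on the y axis, as log2 signal minus the Cre-/mdx mean, for each knockout and for Cre-/mdx. The tabled myofibroblast genes separate the LysM-MRcko/mdx arrays (1.40, 1.07 and 1.40) from the MCK-MRcko/mdx arrays (-0.28, 0.31 and -0.10), while the macrophage markers are at 0.63 or more in all 6 knockout arrays.

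Macrophage genes differed between the knockouts in both directions. Of 23 macrophage markers, 2 were higher (Fcer1g and Laptm5), 2 were lower (Msr1 and Lyz2) and the median was 0.24. Both knockouts lay above Cre-/mdx, with medians of 1.13 in LysM-MRcko/mdx and 0.66 in MCK-MRcko/mdx. In single arrays the median over these markers was 1.70, 0.93 and 0.99 in LysM-MRcko/mdx and 0.63, 0.88 and 0.86 in MCK-MRcko/mdx, so the knockouts differed mainly through LysM array 1, and the median difference was 0.02 without it and 0.41 without LysM array 2. Fcer1g, a signalling chain of Fc receptors, was 1.23 higher, and Laptm5, a lysosomal membrane protein of blood cells, was 1.26 higher with overlap. Neither was called without LysM array 1 (0.85 and 1.00), LysM array 3 (1.30 and 1.33), MCK array 1 (1.07 and 1.25), MCK array 3 (1.14 and 0.80) or Cre- array 2, nor Fcer1g without Cre- array 3. Adgre1, which encodes the macrophage surface protein F4/80, differed by 0.10 ± 0.25. The share of these differences that comes from the number of macrophages was not tested.

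Msr1 encodes the class A scavenger receptor, through which macrophages take up modified lipoproteins and debris. It had 9.87, 9.38 and 9.28 in LysM-MRcko/mdx, 11.60, 10.23 and 10.64 in MCK-MRcko/mdx, and 8.58, 9.12 and 8.19 in Cre-/mdx. The order was MCK-MRcko/mdx over LysM-MRcko/mdx over Cre-/mdx with no overlap between any of the groups, and the knockouts differed by -1.31 ± 0.39. Without MCK array 1 the difference was -0.92 and was not called. Mrc1, the mannose receptor of reparative macrophages, showed the same order, with 14.59 in each LysM-MRcko/mdx array, 15.82, 15.15 and 14.99 in MCK-MRcko/mdx, and 14.04, 13.91 and 13.71 in Cre-/mdx, but its -0.73 was under the fold limit.

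Lyz2 encodes lysozyme, and LysM-Cre is a knock-in at this gene, so its signal in LysM-MRcko/mdx is read from an altered locus. It had 17.85, 17.23 and 17.47 in LysM-MRcko/mdx, 18.78, 18.18 and 18.73 in MCK-MRcko/mdx, and 16.95, 17.88 and 18.03 in Cre-/mdx. The knockouts did not overlap and differed by -1.05 ± 0.32, while LysM-MRcko/mdx and Cre-/mdx overlapped and differed by -0.10. The call was lost with sex as a covariate, with quantile normalization, and without LysM array 2 (-0.90), MCK array 1 (-0.94) or MCK array 3 (-0.96). Lyz1, the neighbouring lysozyme gene, is a near-identical copy and differed by -0.11.

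Several genes of antigen presentation were higher in LysM-MRcko/mdx. H2-K1 and H2-D1, class I heavy chains, were 1.36 and 1.34 higher, and H2-Ab1, a class II beta chain, was 1.41 higher, all without overlap and in every fit that left out 1 array. H2-Ab1 had 14.21, 13.81 and 14.44 in LysM-MRcko/mdx, 12.15, 12.81 and 13.28 in MCK-MRcko/mdx, and 12.56, 12.73 and 13.64 in Cre-/mdx. Ifi30, a lysosomal thiol reductase that prepares antigens, had 14.91, 13.73 and 13.90 in LysM-MRcko/mdx, 11.91, 13.05 and 12.20 in MCK-MRcko/mdx, and 11.82, 12.07 and 13.04 in Cre-/mdx. LysM-MRcko/mdx was high in all 4 genes, and MCK-MRcko/mdx differed from Cre-/mdx by -0.23 to 0.08. The class I heavy chain genes are alike in sequence, so how signal is split among them is uncertain. Tapbp, the chaperone tapasin, was 1.07 higher (0.91 without LysM array 3, not called, nor without LysM array 1). Of 12 class I genes 3 were higher and 0 lower (median 0.20), and of 9 class II genes 2 were higher, 0 were lower and all 9 were above 0 (median 0.56).

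Bst2, an interferon-induced membrane protein that tethers viruses, had the largest difference among the called genes. It had 13.71, 12.26 and 12.60 in LysM-MRcko/mdx, 10.99, 7.57 and 9.23 in MCK-MRcko/mdx, and 10.68, 11.41 and 13.02 in Cre-/mdx. The MCK-MRcko/mdx arrays were low and far apart, Cre-/mdx overlapped with both knockouts, and the knockouts differed by 3.59 ± 0.97, or 12.1-fold (adjusted p = 0.586 in limma). Few other interferon-stimulated genes were called. Irf7, a transcription factor of that response, was 1.18 higher, but not called without LysM array 1 (0.85), LysM array 3 (1.12), MCK array 1 (1.08) or MCK array 2 (1.12). Of 22 such genes 2 were higher and 0 lower, with a median of 0.25 (0.14 without MCK array 2, 0.40 without LysM array 2 and 0.41 without MCK array 3). Bst2 was 1 of 3 called genes in a stretch of 10 measured neighbours on chromosome 8. Babam1, a subunit of a deubiquitinase complex of DNA repair, was 2.03 higher there, with 12.75, 12.34 and 12.31 in LysM-MRcko/mdx, 10.29, 10.79 and 10.23 in MCK-MRcko/mdx, and 11.44, 11.15 and 12.58 in Cre-/mdx. Plvap, the diaphragm protein of leaky capillaries, was 1.05 higher (0.96 without LysM array 1 and 0.85 without MCK array 3, not called). The median of the 10 neighbours was 0.06.

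Other immune genes were sparser. Lgals3bp, a secreted glycoprotein that binds galectins, was 2.30 higher, with 13.02, 11.96 and 12.95 in LysM-MRcko/mdx, 9.77, 11.21 and 10.05 in MCK-MRcko/mdx, and 10.90, 10.90 and 11.46 in Cre-/mdx. Siglec1, the sialoadhesin of macrophages, was 1.20 higher (0.94 without LysM array 1). C4b of the complement cascade was 1.26 higher (0.90 without LysM array 3). Cd59a, which shields cells from the complement pore, differed by -1.43, with 8.85, 9.22 and 10.16 in LysM-MRcko/mdx, 10.74, 10.59 and 11.20 in MCK-MRcko/mdx, and 10.92, 11.40 and 9.96 in Cre-/mdx. It was not called without LysM array 1 (-1.15), LysM array 2 (-1.34) or MCK array 3 (-1.25). Of 15 complement genes, 1 was higher (C4b), 1 was lower (Cd59a), 13 were above 0 and the median was 0.51. Monocyte chemokines and their receptors had a median of -0.16 with none of 18 called, and markers of neutrophils, T and NK cells and B cells each had a median of 0.04 with none called.

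A few genes of fuel use were higher in LysM-MRcko/mdx than in MCK-MRcko/mdx, with the low values in MCK-MRcko/mdx. Pnpla2 encodes adipose triglyceride lipase, which releases fatty acids from lipid droplets. It had 13.69, 14.00 and 14.39 in LysM-MRcko/mdx, 10.91, 12.28 and 10.41 in MCK-MRcko/mdx, and 13.09, 13.56 and 12.82 in Cre-/mdx. The MCK-MRcko/mdx arrays were below the other 6, LysM-MRcko/mdx was above Cre-/mdx by 0.87, and the knockouts differed by 2.83 ± 0.48, or 7.09-fold (adjusted p = 0.421 in limma). Uqcrc1, a core subunit of respiratory complex III, had 14.86, 14.44 and 14.79 in LysM-MRcko/mdx, 12.90, 14.08 and 12.89 in MCK-MRcko/mdx, and 14.37, 15.16 and 14.64 in Cre-/mdx. It differed by 1.41 ± 0.36, all of it on the MCK-MRcko/mdx side (-1.43 against Cre-/mdx, and -0.03 in LysM-MRcko/mdx). Pdk2, a kinase that holds back pyruvate oxidation, was 1.11 higher in LysM-MRcko/mdx than in MCK-MRcko/mdx, by 1.66 in females and 0.14 in males, and its call was lost without any 1 of the knockout arrays except MCK array 2 (range 0.78 to 1.18).

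In these 3 genes the male MCK-MRcko/mdx mouse, MCK array 2, was nearest to the other groups. Nr1d1, the clock repressor REV-ERB alpha, had the same pattern without being called, with 12.21, 12.32 and 12.70 in LysM-MRcko/mdx, 10.40, 12.57 and 9.87 in MCK-MRcko/mdx, and 12.67, 13.31 and 12.32 in Cre-/mdx. Of 16 clock genes none was called and the median was 0.09, and the part of sex and of Nr1d1 in the fuel genes was not tested. Most members of the wider lists were not called. Of 23 lipid and fuel genes, 2 were higher (Pnpla2 and Pdk2), 0 lower and 19 above 0, with a median of 0.30, and against Cre-/mdx the median was -0.38 in LysM-MRcko/mdx and -0.88 in MCK-MRcko/mdx. Of 83 nuclear subunits of oxidative phosphorylation, 3 were higher (Uqcrc1, Cox6a1 and Atp5g2), 0 were lower and the median was 0.00. Atp5g2, a subunit of ATP synthase, was 1.14 higher and not called without LysM array 1 (1.03), LysM array 3 (1.10), MCK array 1 (0.89) or MCK array 3 (1.14). Cox6a1, the form of a cytochrome c oxidase subunit found outside muscle fibers, was 1.54 higher without overlap and with LysM-MRcko/mdx above Cre-/mdx by 1.03.

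Cyp2e1, a cytochrome P450 that oxidizes ethanol and small ketones, had 16.15, 16.38 and 16.38 in LysM-MRcko/mdx, 13.23, 14.77 and 13.58 in MCK-MRcko/mdx, and 14.44, 15.38 and 13.70 in Cre-/mdx. It was 2.44 higher and LysM-MRcko/mdx stood above both other groups. Cyp2f2, another P450, was 2.11 higher without overlap. Fat cell markers were also higher on average and far more variable. Of 13 adipocyte markers, 12 were above 0 and none was called, with a median of 0.50 (1.02 without LysM array 2 and 0.76 without MCK array 2). Adipoq, which encodes adiponectin and was named after its values were seen, had 8.95, 8.84 and 10.12 in LysM-MRcko/mdx, 7.48, 7.90 and 8.21 in MCK-MRcko/mdx, and 7.82, 9.77 and 7.46 in Cre-/mdx. The part of fat cells in the differences of Pnpla2 and the P450 genes was not tested.

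Among vessel genes, none of 22 endothelial markers was called, with 20 above 0 and a median of 0.37 (0.22 without MCK array 2). Against Cre-/mdx the median was -0.25 in LysM-MRcko/mdx and -0.61 in MCK-MRcko/mdx. Pecam1, the junction protein CD31 of endothelium, differed by 0.42. Pdgfrb, the growth factor receptor of pericytes and fibroblasts, was 1.07 higher, with 11.46, 10.85 and 11.30 in LysM-MRcko/mdx, 9.82, 10.33 and 10.25 in MCK-MRcko/mdx, and 10.73, 10.73 and 10.84 in Cre-/mdx. The MCK-MRcko/mdx arrays lay below the other 6, while the lowest LysM-MRcko/mdx array (10.85) nearly met the highest Cre-/mdx array (10.84). Without LysM array 1 the Pdgfrb difference was 0.94 and without MCK array 1 it was 0.91, and Pdgfrb was then not called. Lrg1, a secreted glycoprotein of vessel growth, was 1.53 higher, with 7.11, 8.35 and 7.38 in LysM-MRcko/mdx, 6.60, 6.47 and 5.17 in MCK-MRcko/mdx, and 7.07, 7.23 and 6.56 in Cre-/mdx, and kept its call with any array left out but not with Tukey biweight averages (0.84) or in the plain equal-variance test. Eng, endoglin, a co-receptor for transforming growth factor beta on endothelium, was the endothelial marker with the largest difference, 0.81.

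A few of the genes lower in LysM-MRcko/mdx were genes of mechanical load and of muscle mass, while 47 of the 54 lower genes were in no gene list. Ankrd1 encodes an ankyrin repeat protein of the sarcomere that rises with stretch. It had 13.01, 13.69 and 12.83 in LysM-MRcko/mdx, 16.94, 14.68 and 15.22 in MCK-MRcko/mdx, and 15.25, 14.47 and 13.93 in Cre-/mdx. LysM-MRcko/mdx was below every other array, MCK array 1 was high, and the knockouts differed by -2.44 ± 0.62 (adjusted p = 0.570 in limma) and by -1.77 at the least with any array left out. The immediate early gene Fos was also high in that array, with 10.64 against 6.74 and 6.12 in the other MCK-MRcko/mdx arrays and 6.39, 6.71 and 7.02 in LysM-MRcko/mdx. Of 15 immediate early genes none was called, and the median against Cre-/mdx was 1.01 in MCK array 1 and -0.28 to 0.06 in the other 5 knockout arrays.

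Mstn encodes myostatin, the secreted brake on muscle growth. It had 8.37, 9.54 and 9.98 in LysM-MRcko/mdx, 10.87, 10.74 and 10.90 in MCK-MRcko/mdx, and 11.13, 10.10 and 10.32 in Cre-/mdx. The LysM-MRcko/mdx arrays were below the other 6, with LysM array 1 the lowest, and the knockouts differed by -1.54 ± 0.44 (-1.08 at the least with any array left out). Abra, an actin-binding activator of serum response factor, differed by -1.91 without overlap, but its call was lost with sex as a covariate, with quantile normalization, with Tukey biweight averages, in the plain equal-variance test, with the replicate block, and without LysM array 1 (-1.32), LysM array 3 (-2.07), MCK array 1 (-1.51) or MCK array 3 (-2.04). Uprt, a homolog of uracil phosphoribosyltransferase, differed by -1.55, with 11.07, 12.06 and 11.16 in LysM-MRcko/mdx, 12.99, 13.29 and 12.66 in MCK-MRcko/mdx, and 13.52, 12.71 and 12.54 in Cre-/mdx. Of 20 stretch and atrophy genes, 3 were lower (Ankrd1, Abra and Mstn), 1 was higher (Bag3, a co-chaperone of the Z-disc) and the median was -0.23, or -0.04 without LysM array 1 or with quantile normalization, -0.15 without MCK array 1 and -0.40 without LysM array 2. Bag3 was 1.05 higher with overlap, and was not called without LysM array 2 (0.99), LysM array 3 (0.99), MCK array 1 (0.79) or MCK array 3 (0.88).

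Dmd, the dystrophin gene, whose mdx transcript carries a stop codon, had 9.35, 10.46 and 9.61 in LysM-MRcko/mdx, 11.72, 10.94 and 10.44 in MCK-MRcko/mdx, and 11.52, 10.90 and 10.47 in Cre-/mdx. The lowest MCK-MRcko/mdx array overlapped the highest LysM-MRcko/mdx array, and the knockouts differed by -1.23 ± 0.44. The call was lost without LysM array 1 (-1.0) or 3 (-1.13) and without MCK array 1 (-0.88) or 2 (-1.27). Sgca, alpha-sarcoglycan of the same membrane complex, differed by 0.88 in the other direction and was not called. The sarcoglycan genes Sgcb and Sgcd differed by -0.57 and -0.66, on the side of Dmd, without overlap and without being called. Of the 11 genes of the dystrophin-glycoprotein complex, 1 was lower (Dmd), 5 were above and 5 below 0, and the median was 0.00.

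The smallest p of all clusters belonged to a small difference. Psmd14, a deubiquitinase of the proteasome lid, had 8.69, 8.65 and 8.64 in LysM-MRcko/mdx, 9.03, 9.06 and 9.06 in MCK-MRcko/mdx, and 8.83, 8.83 and 8.80 in Cre-/mdx. The groups formed 3 tight and separate bands, with Cre-/mdx between the knockouts. It differed by -0.39 (adjusted p = 0.105 in limma). It was singled out after its values were seen.

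Some small RNA genes were called. Of 607 microRNA genes, 3 were lower (0.494%) and 0 higher, and of 953 small nucleolar RNA genes, 9 were lower (0.944%) and 5 were higher (0.525%), against 0.18% lower and 0.333% higher over all genes. None of 915 small nuclear RNA genes was called. The differences between these classes were not tested. A pair of the microRNA genes were of the let-7 family, whose mature 5p strands share their seed and hold back growth genes. The arrays read the precursor locus and not the mature strand. The 5p strands are shown from RefSeq, 5′ to 3′, with the seed (bases 2 to 8) in capitals, for the called loci let-7f-1 (chromosome 13) and let-7c-1 (chromosome 16) and for let-7d and let-7a-1, which lie beside let-7f-1.
let-7f-5p: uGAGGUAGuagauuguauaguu
let-7c-5p: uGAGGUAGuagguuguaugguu
let-7d-5p: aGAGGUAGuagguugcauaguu
let-7a-5p: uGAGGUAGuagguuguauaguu
Mirlet7f-1 had 7.31, 7.49 and 7.58 in LysM-MRcko/mdx, 8.81, 8.41 and 9.23 in MCK-MRcko/mdx, and 9.25, 8.71 and 8.24 in Cre-/mdx. LysM-MRcko/mdx was below the other 6 arrays, and the knockouts differed by -1.36 ± 0.29 (-1.15 at the least with any array left out). Its neighbour Mirlet7d differed by -0.74 without overlap, and Mirlet7a-1, its neighbour on the other side, by -0.16 with overlap. Mirlet7c-1 differed by -1.61 at a low signal of 4.24, 3.49 and 4.23 in LysM-MRcko/mdx and 5.66, 5.20 and 5.93 in MCK-MRcko/mdx, and its call was lost in 6 of the 9 fits that left out 1 array. Over all 12 let-7 loci the median was -0.10, with 4 above and 8 below 0.

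Among the small nucleolar RNA genes, DQ267102 and AF357426 on chromosome 12 were lower by fitted differences of -1.70 and -1.47. AF357426 had 7.11, 6.63 and 6.88 in LysM-MRcko/mdx, 7.76, 8.20 and 9.07 in MCK-MRcko/mdx, and 7.97, 7.57 and 7.29 in Cre-/mdx. Gm22303 and Gm22358 had nearly the same signals as each other, and differed by -1.50 and -1.49, while Gm24926 and Gm22632 had identical signals and were both 1.02 higher (0.87 without LysM array 3 and 0.94 without MCK array 3, not called), so these pairs each count as 1 measurement. With quantile normalization 40 small nucleolar RNA genes were higher and 8 lower. The count of higher ones was 76 without LysM array 1, 41 without LysM array 2, 1 without LysM array 3, 41 without MCK array 1 and 43 without MCK array 2, and the lower ones numbered 6 to 14 over the fits that left out 1 array. The call of DQ267102 was lost with sex as a covariate, with Tukey biweight averages, in the plain equal-variance test, and without LysM array 2 (-1.29), MCK array 2 (-1.76) or MCK array 3 (-1.29).

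A run of neighbouring genes on chromosome 2 lay on the low side together. It was noticed because 9 of the called lower genes were neighbours there, and it holds zinc finger genes such as Zfp971, Zfp972 and Zfp931 and many predicted genes and pseudogenes. All 31 measured genes of the run were below 0, with a median of -0.83, -0.59 in LysM-MRcko/mdx minus Cre-/mdx and 0.24 in MCK-MRcko/mdx minus Cre-/mdx. In single arrays the median against Cre-/mdx was -0.67, -0.43 and -0.77 in LysM-MRcko/mdx, 0.12, 0.00 and 0.65 in MCK-MRcko/mdx, and 0.00, 0.24 and -0.20 in Cre-/mdx. Gm14412 lay between 12.74 and 13.22 in LysM-MRcko/mdx, between 14.03 and 14.60 in MCK-MRcko/mdx, and between 13.57 and 14.15 in Cre-/mdx, a difference of -1.29 ± 0.21 (adjusted p = 0.416 in limma). LysM-MRcko/mdx was below all other arrays. Zfp931 had 12.12, 12.34 and 12.03 in LysM-MRcko/mdx, 13.01, 12.93 and 13.57 in MCK-MRcko/mdx, and 13.19, 13.21 and 12.76 in Cre-/mdx, a difference of -1.01, which was singled out after its values were seen and was not called without LysM array 1 (-0.98), LysM array 3 (-0.94) or MCK array 3 (-0.81). These genes are near-identical copies, so their signals share sequence and the 31 values are not 31 measurements. The number called was 2 without MCK array 3 (30 of 31 below 0, median -0.68), 6 without LysM array 3, 14 without LysM array 2 or MCK array 2, and 4 with quantile normalization (median -0.71).

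**Figure D5:**
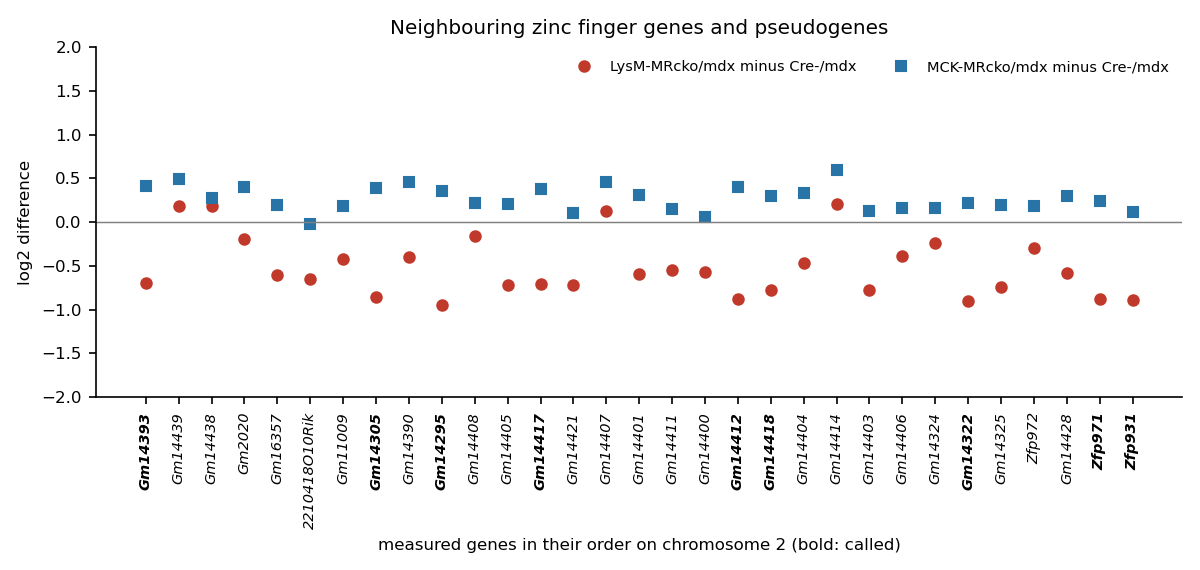
The 31 measured genes of the chromosome 2 run in their order along the chromosome on the x axis (the 9 called ones in bold) and the log2 difference from Cre-/mdx on the y axis, red circles for LysM-MRcko/mdx and blue squares for MCK-MRcko/mdx. The red point is below the blue point in all 31 genes, and the medians are -0.59 and 0.24.

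The study named 17 genes for both knockouts, of which 2 (Spp1 and Gm14699) were not analysed here. For Spp1 the study reported a larger rise over Cre-/mdx in MCK-MRcko/mdx than in LysM-MRcko/mdx, which the values below leave out. Of the other 15, none was called, with a median difference of -0.02, and their medians against Cre-/mdx were 1.13 in LysM-MRcko/mdx and 1.28 in MCK-MRcko/mdx. The study chose them on these samples. Folr2, the folate receptor of resident macrophages, had 12.61, 11.88 and 12.12 in LysM-MRcko/mdx, 12.39, 12.18 and 12.94 in MCK-MRcko/mdx, and 9.88, 11.73 and 11.16 in Cre-/mdx, a difference of -0.30 ± 0.48. Mmp12, the macrophage elastase, differed by -0.04 ± 0.63. The knockouts did not overlap in 2 of the 15, both lower in LysM-MRcko/mdx. Over all genes there was no overlap in 4.16% on the higher and 5.71% on the lower side, so this count says little. Pf4, a chemokine of platelets and macrophages, had 9.84, 9.08 and 9.68 in LysM-MRcko/mdx, 11.17, 10.06 and 10.32 in MCK-MRcko/mdx, and 8.53, 8.59 and 8.79 in Cre-/mdx, a difference of -0.98 just under the fold limit, with each group in a band of its own. Cd84, a receptor of the SLAM family, differed by -0.76 ± 0.35.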

How the data were processed

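The authors hybridised quadriceps RNA with an integrity number above 7 to Clariom D arrays and deposited 1 table of log2 signals per transcript cluster, made by SST-RMA in Affymetrix Expression Console. Their comparisons were made in Transcriptome Analysis Console, and the genome build and tool versions are not given in the sources used here. The deposited log2 values were used without further normalization. A group-means model on all 9 arrays was fitted with limma 3.58.1 in R 4.3.3, with Benjamini-Hochberg adjustment over 65672 clusters. Each gene is given by its cluster of highest mean over the 9 arrays. Symbols were updated by RefSeq (327 changed), and 30450 clusters had 1 symbol, 2151 several and 33071 none. Genes were eligible to be named if they were Nr3c2, one of the 20 highest or 20 lowest called genes whose knockout arrays did not overlap, a tabled myofibroblast gene, a gene named for both knockouts, a called member of a list, or one of its 2 largest differences where fewer than 2 were called. Not all of them are described. Other genes were named after their values were seen. The members and lists were chosen with earlier results of these data known. The scripts were tested on simulated data. The number of arrays limits the precision. Alternatives were another normalization, test, average, covariate, filter or cluster rule, and leaving out each array.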

Additional observations from a re-analysis of the deposited data

How the results depend on the processing

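No called gene changed direction under any alternative, but this was in part fixed by the choice of these genes on the same arrays. With quantile normalization 212 clusters were higher and 91 lower, and 164 genes were higher and 34 lower. The plain equal-variance test called 66 genes higher. Calling by adjusted p gave 0 clusters, and calling by unadjusted p alone gave 4679. Leaving out 1 array gave 234 to 495 clusters (97 to 242 higher, 120 to 287 lower) and 111 to 342 genes (72 to 193 higher, 39 to 149 lower). The highest of these counts came without MCK array 2, except that of lower clusters, which came without MCK array 3. Same-numbered arrays of the knockouts showed no clear pairing. The correlations of their deviations from the group means were -0.17, 0.13 and 0.16, against -0.31 to 0.25 for unlike numbers. So few arrays cannot settle whether equal numbers mark paired samples. A replicate block gave 265 clusters (116 higher, 149 lower) and 139 genes (89 higher, 50 lower). Of the 154 genes, 49 stayed called whichever array was left out (34 higher, 15 lower), and 43 under every alternative. Sex as a covariate lost 43 of the 154. A fit on the 6 knockout arrays only lost 16 of the 154. The cause of these shifts was not tested. Dim clusters and clusters at the top of the scale limit what differences can be seen.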
